A study of Neurospora crassa with 18 samples.

Results

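Wild-type *Neurospora crassa* was starved of phosphate for 4 h and profiled by RNA-seq in 2 separate experiments, and the 6 libraries made from these starved cultures are described here, 3 from Experiment 1 and 3 from Experiment 2. They are 6 of the 18 libraries of the series and were taken by their labels alone, which give the same genotype, the same 0 mM phosphate and the same 4 h for all of them. The question addressed was how far the starvation response had gone in each experiment. The unstarved reference was 3 wild-type libraries held for 4 h at 7 mM phosphate, which exist in Experiment 1 only.

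*N. crassa* is a filamentous ascomycete in which phosphate acquisition has been studied for decades. Phosphate starvation frees the basic helix-loop-helix activator NUC-1 from the cyclin-CDK pair PREG and MDK-1 through the CDK inhibitor NUC-2, and NUC-1 then switches on genes for phosphatases, phosphate permeases and nucleases.  Ribosomes hold much of a cell's phosphate as rRNA, and starving fungi generally lower the expression of ribosomal protein and ribosome assembly genes. Prolonged starvation in *N. crassa* also accompanies asexual development, in which aerial hyphae and conidia are covered by the hydrophobin EAS.

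In each experiment mycelia of the wild-type strain FGSC 2489 (*mat A*) were grown for 24 h at 37 mM phosphate, washed, and moved to Fries minimal medium with 0 mM phosphate, or with 7 mM for the reference, at 25°C in constant light. Each library came from a separately inoculated culture. Experiment 1, with the 7 mM libraries, was sequenced at the Joint Genome Institute on a HiSeq 2000 as single 100-bp reads. Experiment 2 was sequenced at UC Berkeley on a HiSeq 4000 as single 50-bp reads. Experiment, site, sequencer and read length therefore change together and cannot be told apart. The other groups given here are shown as values only, namely Δ*nuc-1* cells (a hygromycin-marked deletion, *mat a*) starved for 4 h in Experiment 2, at the same site and on the same sequencer as the Experiment 2 wild type, and wild type *mat a* starved for 12 h in Experiment 3, from UC Berkeley on a NovaSeq. The mating type of the libraries was checked with *matA-1*, which had 16.5, 8.98 and 9.803 rescaled TPM in Experiment 1 and 7.55, 1.78 and 4.07 in Experiment 2, and was at most 0.0722 in the Δ*nuc-1* libraries. Its ratio between the experiments, 2.64, was 4.02 without Experiment 2 replicate 1. The remaining *mat A* genes, *matA-2* and *matA-3*, lay under the minimum of 1 TPM.

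The deposited values are TPM, which sum to the same total in every library, so read depth is unknown and error was measured only from the spread between libraries. Each library was divided by a median-of-ratios factor, 1.18 to 1.28 for starved Experiment 1, 0.805 to 1.01 for starved Experiment 2 and 0.881 to 0.901 at 7 mM, which gives rescaled TPM. The median SD between libraries was 0.118 log2 units in starved Experiment 1 and 0.198 in starved Experiment 2, against 0.0664 at 7 mM. All differences below are differences of log2(rescaled TPM + 1), Experiment 2 minus Experiment 1 unless stated. A gene was called where limma gave a Benjamini-Hochberg adjusted p under 0.05 over all genes tested, the group means of rescaled TPM differed at least 2-fold and the mean TPM reached 10 in either group, with at least 4-fold required against 7 mM.

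Starved cells of the 2 experiments differed widely. Of 8458 genes tested, 993 were called higher in Experiment 2 than in Experiment 1 (11.7%) and 994 lower (11.8%), and 204 and 276 of these differed at least 4-fold (2.41% and 3.26%). The shares of 11.7% and 11.8% are the background for every count below of genes called between the experiments. The 3 libraries of each experiment did not overlap for 5951 genes (70.4%), 34.7% with Experiment 2 higher and 35.7% with it lower, which is the background for every statement below that libraries did not overlap. The even split depends on the rescaling: with TPM as deposited the median difference of all genes moved from -0.02 to -0.40, and 493 genes were called higher and 1648 lower. Against 7 mM, 313 genes were at least 4-fold higher (3.7%) and 301 lower (3.56%) in starved Experiment 1, 7.26% of genes in all. The same reference gave 114 higher (1.35%) and 141 lower (1.67%) for starved Experiment 2, where the site also differs.

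Starvation genes were then taken from the mean of both starved groups against 7 mM, which gives each experiment equal weight. This named 179 genes with a higher starved mean (2.12% of those tested), termed starvation-induced here, and 134 with a lower one (1.58%), termed starvation-repressed. A gene raised in 1 experiment alone can enter the induced set. One lowered in 1 experiment alone cannot enter the repressed set, since its rule puts each starved group at least 2-fold below 7 mM. The counts and medians of the 2 sets are therefore not directly comparable. Of the 179, 6 were less than 2-fold above 7 mM in starved Experiment 1 and 40 were less than 2-fold above it in starved Experiment 2. For the 134 the matching count is 0 in either experiment by construction and shows nothing about the response. Of the 179, 128 were called lower in Experiment 2 than in Experiment 1 (71.5%, against 11.8% of all genes tested). They include all 40 of the genes less than 2-fold above 7 mM in Experiment 2. Another 11 were called higher, which include all 6 of the genes less than 2-fold above 7 mM in Experiment 1. For those 40 and 6 genes the rule of the set fixed the direction, so their calls are no evidence of one. A further 40 of the 179 were not called, and the median difference was -1.74 against -0.02 for all genes. Of the 134, 41 were called higher in Experiment 2 (30.6%, against 11.7%), 3 were called lower, and the median difference was 0.71. Most starvation-induced genes therefore stood lower in Experiment 2, and the repressed genes that were called stood mostly higher there. The 179 genes made up 11.9%, 12.0% and 11.8% of all TPM in the Experiment 1 libraries and 3.92%, 2.59% and 2.48% in those of Experiment 2, against 0.542% to 0.650% at 7 mM. With limma's log2 difference in place of the ratio of means, 83 repressed genes were called higher in Experiment 2, and with TPM as deposited 17 were.

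**Figure D1:**
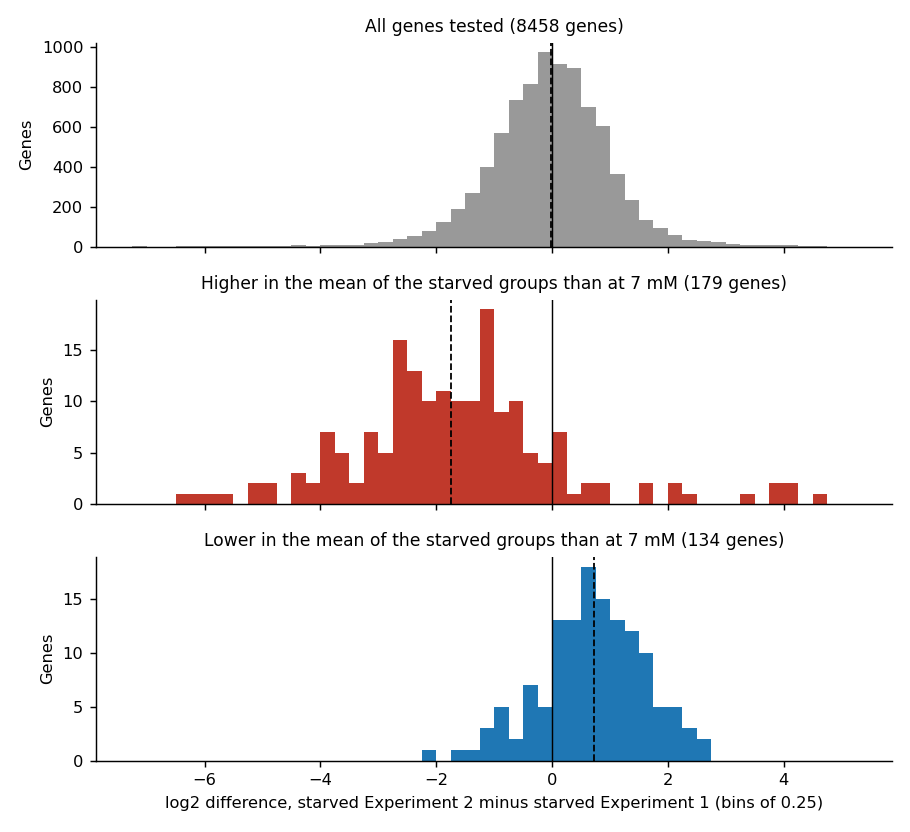
Histograms of the log2 difference between starved Experiment 2 and starved Experiment 1 (x axis, bins of 0.25; y axis, number of genes) for all 8458 genes tested, the 179 starvation-induced genes and the 134 starvation-repressed genes; dashed lines mark the medians, -0.02, -1.74 and 0.71. The induced genes lie mostly left of 0 and the repressed genes mostly right of it.

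Among the regulators of the response, 0 of 6 genes were called between the experiments by limma and the 2-fold threshold. All 6 had a limma adjusted p under 0.05, as had 70.5% of all genes tested, but differed less than 2-fold. *nuc-3*, the basic helix-loop-helix factor, had 12.6, 12.2 and 11.9 rescaled TPM at 7 mM, 253, 189 and 229.8 in starved Experiment 1 and 188, 165 and 150.1 in starved Experiment 2. Its induction was thus called in each experiment against 7 mM, and the starved groups lay within 2-fold of each other (log2 difference -0.41, SE 0.116, limma adjusted p = 0.0097). *nuc-2*, which encodes the CDK inhibitor, had 37.2, 34.1 and 35.6 at 7 mM, 151, 129.7 and 133 in Experiment 1 and 221, 232 and 176 in Experiment 2 (log2 difference 0.59, SE 0.111, limma adjusted p = 0.0009). The activator gene *nuc-1* had 21.1, 25.3 and 24.1 in Experiment 1 and 37.4, 43.6 and 29.05 in Experiment 2, and 22.6, 22.5 and 23.2 at 7 mM. The remaining members, the cyclin gene *preg*, the CDK gene *mdk-1* and the MAP kinase gene *mak-2* differed by 0.91, 0.38 and 0.71. The list median of 0.60 became 0.20 with TPM as deposited, and *preg* was called without Experiment 2 replicate 1.

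The lists from phosphatases to other transporters below were drawn up by the study from genes induced by starvation against 7 mM, and 50 of their 51 members were called at least 4-fold higher in starved Experiment 1. Since the same Experiment 1 libraries entered that choice, it favours lower values in Experiment 2 as well as induction against 7 mM. The counts, medians and sums of these lists are therefore descriptions, not independent evidence of a direction.

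Of the 5 phosphatase genes, 3 were called lower in Experiment 2 and 0 higher, with a median difference of -2.14, and *pho-2* and *pht-1* were not called. *pho-2*, the repressible alkaline phosphatase, had 11.4, 8.86 and 9.60 rescaled TPM at 7 mM, 4304, 3205 and 3484 in starved Experiment 1 and 4031, 3001 and 3029 in starved Experiment 2. The starved libraries of the experiments overlapped (log2 difference -0.13, SE 0.156, limma adjusted p = 0.47). *pho-3*, the repressible acid phosphatase, had 7.07, 6.72 and 6.95 at 7 mM, 2151, 1853 and 1923 in Experiment 1 and 631, 246 and 324 in Experiment 2. Every Experiment 2 library was thus far above 7 mM but below every Experiment 1 library, 4.94-fold lower on average (log2 difference -2.41, SE 0.270, limma adjusted p = 3e-05).

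The alkaline phosphatase domain gene NCU09631 followed *pho-3*, with 455, 445 and 453 rescaled TPM in Experiment 1 and 159, 83.2 and 79.8 in Experiment 2 (4.21-fold lower, log2 difference -2.14, SE 0.219, limma adjusted p = 1.7e-05). The inorganic pyrophosphatase gene *ipp-2* had 10.2, 9.64 and 11.8 at 7 mM, 51.3, 48.2 and 48.9 in Experiment 1 and 7.23, 9.44 and 6.74 in Experiment 2 (log2 difference -2.53, SE 0.123, limma adjusted p = 2.6e-07). In Experiment 2 it therefore stood below every unstarved library. *pht-1*, a predicted histidine acid phosphatase gene, had 90.7 to 124 in Experiment 1 and 64.7 to 78.6 in Experiment 2 (log2 difference -0.55, SE 0.120, limma adjusted p = 0.0025), from 20.81 to 21.5 at 7 mM.

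Of the 5 phosphate transporter genes 1 was called higher in Experiment 2 (20%, against 11.7% of all genes) and 0 lower. The median difference was -0.78. *pho-4*, the sodium-dependent high-affinity permease, had 4.22, 4.50 and 5.14 rescaled TPM at 7 mM, 1207, 683 and 938 in starved Experiment 1 and 1175, 1077 and 1275 in starved Experiment 2, and the starved libraries overlapped (log2 difference 0.35, SE 0.177, limma adjusted p = 0.098). *pho-5*, the other high-affinity permease, had 3441, 2840.2 and 2989 in Experiment 1 and 1763, 1576 and 1681 in Experiment 2, from 10.46 to 12.2 at 7 mM. Its ratio, 1.85-fold lower in Experiment 2, stayed under the 2-fold threshold although no library overlapped (log2 difference -0.88, SE 0.103, limma adjusted p = 3.9e-05). The chromate ion transporter gene *trm-50* (238 to 289.8 against 126 to 160.03) and the transporter gene NCU09767 (258 to 284 against 138 to 201) were likewise under 2-fold. With TPM as deposited, *pho-5*, *trm-50* and NCU09767 were called lower in Experiment 2.

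*pho-7*, which encodes an MFS phosphate transporter, was the member called higher in Experiment 2. It had 74.4, 73.6 and 81.5 rescaled TPM at 7 mM and 82.7, 58.1 and 76.6 in starved Experiment 1, and 205, 378 and 250.00 in starved Experiment 2, 3.83-fold higher (log2 difference 1.89, SE 0.204, limma adjusted p = 2.3e-05). The Δ*nuc-1* libraries of Experiment 2 had 49.9, 57.02 and 75.7, close to the Experiment 1 level, and the wild-type libraries starved for 12 h had 63.5, 48.9 and 57.2. High *pho-7* was thus seen in the Experiment 2 wild type and in none of the other groups named here.

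Summed over each list, phosphatase transcripts were 0.907%, 0.669% and 0.718% of all TPM in the Experiment 1 libraries and 0.497%, 0.322% and 0.283% in those of Experiment 2, against 0.00429% to 0.00464% at 7 mM. Phosphate transporter transcripts were 0.679%, 0.483% and 0.543% in Experiment 1 and 0.355%, 0.312% and 0.282% in Experiment 2. The Experiment 2 libraries lay below those of Experiment 1 in each sum (exact permutation test, two-sided, p = 0.10, the smallest p that 3 libraries against 3 allow). Both lists were drawn from genes induced in the same Experiment 1 libraries, so this test cannot decide whether the sums differ in general. In each experiment, starved replicate 1 had the highest sum of both lists.

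**Figure D2:**
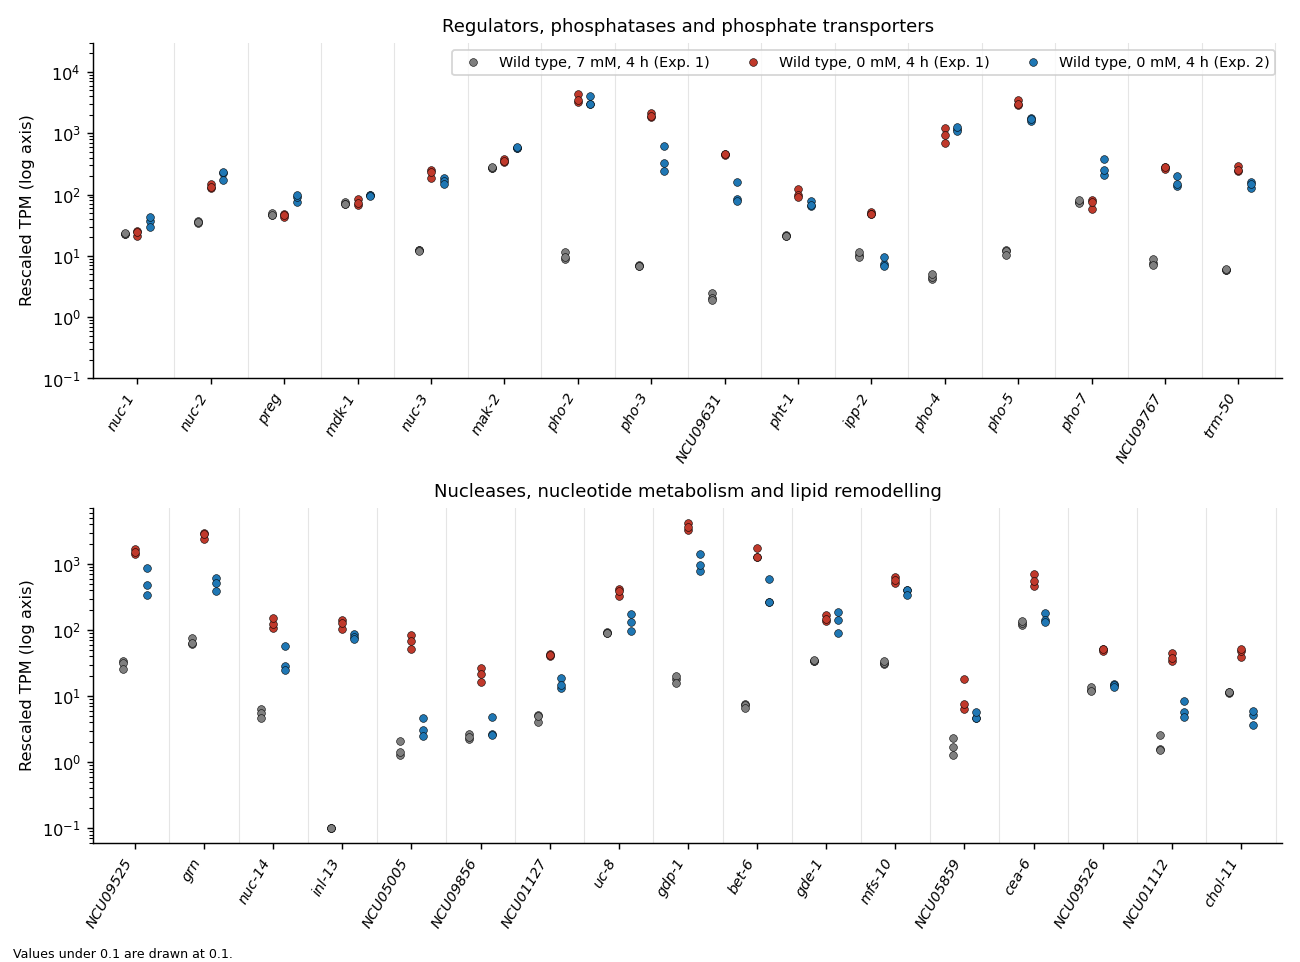
Rescaled TPM (y axis, log scale) of the 33 regulator, phosphatase, phosphate transporter, nuclease, nucleotide and lipid genes in each library; 1 point is 1 library, grey at 7 mM, red in starved Experiment 1 and blue in starved Experiment 2, with values under 0.1 drawn at 0.1. Red and blue points overlap for *pho-2*, *pho-4* and *gde-1*, stand far apart for *pho-3* and NCU09631, and blue lies near grey for *cea-6* and NCU09526 and below it for *ipp-2* and *chol-11*.

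Nuclease genes, whose products release phosphate from nucleic acids, were called higher than 7 mM in each experiment and lower in Experiment 2 than in Experiment 1 (3 of 3). *grn*, the ribonuclease T1 gene, had 76.7, 62.1 and 64.8 rescaled TPM at 7 mM, 2998, 2374 and 2819 in starved Experiment 1 and 618, 385 and 522 in starved Experiment 2, 5.37-fold lower (log2 difference -2.44, SE 0.172, limma adjusted p = 1.6e-06). The extracellular deoxyribonuclease gene NCU09525 had 1695, 1431 and 1503 in Experiment 1 and 884, 344 and 484 in Experiment 2 (log2 difference -1.54, SE 0.280, limma adjusted p = 0.00073). *nuc-14*, a nuclease gene, had 107 to 150.1 and 25.2 to 56.98, from 4.61 to 6.34 at 7 mM (log2 difference -1.84, SE 0.266, limma adjusted p = 0.00017). Every Experiment 2 library of these genes lay between the unstarved and the Experiment 1 libraries.

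Of the 5 genes of nucleotide metabolism, 4 were called lower in Experiment 2. *uc-8*, the uracil phosphoribosyl transferase gene of pyrimidine salvage, had 94.1, 91.6 and 89.8 rescaled TPM at 7 mM, 332, 427 and 385 in starved Experiment 1 and 177, 98.3 and 135 in starved Experiment 2 (log2 difference -1.51, SE 0.182, limma adjusted p = 5e-05). The Δ*nuc-1* libraries of Experiment 2 had 33.1, 33.2 and 35.3 for *uc-8*, below the wild type of that experiment. The HHE domain gene NCU05005 showed the widest gap of this list, 51.9, 83.3 and 68.3 in Experiment 1 and 4.66, 3.12 and 2.47 in Experiment 2 (log2 difference -3.97, SE 0.220, limma adjusted p = 4.8e-07). Its 7 mM libraries had 1.28, 1.41 and 2.11, so the Experiment 2 libraries stood far nearer to the unstarved level than to Experiment 1. NCU09856, a gene predicted for ATP hydrolysis, and NCU01127, a potential NADH pyrophosphatase gene, differed by -2.39 and -1.38. *inl-13*, which encodes a bisphosphate nucleotidase, was listed at 0 in every 7 mM library and had 105, 143 and 127 in Experiment 1 and 86.4, 77.7 and 74.02 in Experiment 2, within 2-fold (log2 difference -0.64, SE 0.115, limma adjusted p = 0.00069). It was called lower in Experiment 2 with TPM as deposited.

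The 9 lipid genes serve the replacement and breakdown of phospholipids, and 7 of them were called lower in Experiment 2 and 0 higher. *bet-6*, the betaine lipid synthase gene whose product allows a phosphate-free membrane lipid to be made, had 7.72, 7.31 and 6.52 rescaled TPM at 7 mM, 1737, 1296 and 1294 in starved Experiment 1 and 599.7, 269 and 262 in starved Experiment 2 (log2 difference -2.03, SE 0.278, limma adjusted p = 0.00011). *gdp-1*, a glycerophosphoryl diester phosphodiesterase gene, had 4198, 3315 and 3652 in Experiment 1 and 1413, 779 and 979 in Experiment 2 (log2 difference -1.85, SE 0.195, limma adjusted p = 1.9e-05). Replicate 1 was the highest Experiment 2 library for both genes, and still below every Experiment 1 library. *gde-1*, the glycerophosphocholine phosphodiesterase gene, had 169, 136 and 149.5 in Experiment 1 and 189, 144 and 90.6 in Experiment 2, and these libraries overlapped (log2 difference -0.16, SE 0.215, limma adjusted p = 0.52).

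The level of the other lipid genes in Experiment 2 ranged from below the unstarved level to 11.8-fold above it. *chol-11*, the phosphatidylserine decarboxylase gene, had 11.1, 11.5 and 11.58 at 7 mM, 39.5, 48.4 and 51.2 in starved Experiment 1 and 5.21, 5.90 and 3.63 in starved Experiment 2, below the unstarved libraries (log2 difference -3.01, SE 0.152, limma adjusted p = 3e-07). The Δ*nuc-1* libraries of Experiment 2 had 6.68, 8.28 and 8.22 for *chol-11*, above the wild type of that experiment. The predicted lipase gene *cea-6* had 120.02, 129.8 and 135 at 7 mM, 471, 709.8 and 552 in Experiment 1 and 182, 142 and 131 in Experiment 2 (log2 difference -1.92, SE 0.161, limma adjusted p = 4.5e-06). The predicted lipase gene NCU09526 and the predicted phosphatidylethanolamine binding protein gene NCU01112 differed by -1.73 and -2.46. NCU09526 had 13.7 to 15.4 in Experiment 2 and 12.03 to 13.8 at 7 mM, and NCU01112 stood 3.38-fold above 7 mM there. *mfs-10*, a predicted phospholipid transporter gene, had 635, 526 and 579 in Experiment 1 and 402, 401 and 335 in Experiment 2, 11.8-fold above 7 mM, and was not called between the experiments (-0.61). NCU05859, a predicted lipase gene, had 18.1, 6.39 and 7.61 in Experiment 1 and 4.60, 4.74 and 5.86 in Experiment 2, from 1.30 to 2.32 at 7 mM, and its call rested on Experiment 1 replicate 1, without which the ratio fell from 2.11 to 1.38. The call was also lost in every fit without 1 Experiment 2 library.

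Sugar phosphate and nucleotide sugar genes were chosen by the study for their induction in starved Experiment 1, where all 9 were called higher than 7 mM, and 9 of 9 were lower in Experiment 2 (median difference -1.72), or 6 after a correction for gene span. Of the 9, 1, *man-2*, for mannose-6-phosphate isomerase, was called higher than 7 mM in starved Experiment 2. *gae-1*, the UDP-galactose-4-epimerase gene, had 16.4, 19.6 and 25.5 rescaled TPM at 7 mM, 284, 349 and 333 in Experiment 1 and 51.3, 26.9 and 22.5 in Experiment 2 (log2 difference -3.31, SE 0.267, limma adjusted p = 3.5e-06). The predicted UDP-sugar transferase gene NCU09906 had 192, 246 and 230.05 and 39.1, 24.1 and 19.1 (log2 difference -3.03, SE 0.211, limma adjusted p = 1.5e-06). Both phosphoketolase genes were in the list, *phk-1* with a difference of -2.05 and *phk-2* with -1.93. The smallest gap was that of *ndvB*, a cellobionic acid phosphorylase gene (log2 difference -1.07, SE 0.132, limma adjusted p = 5.5e-05), and the call of *man-2* was lost without Experiment 2 replicate 3.

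Of the 15 other transporter genes, all chosen for induction and called higher than 7 mM in starved Experiment 1, 13 were called lower in Experiment 2, 0 higher, and *hgt-1* and *mig-12* were not called. The P-type ATPase gene *ph7* had 8.63, 7.58 and 9.26 rescaled TPM at 7 mM, 119, 116 and 121 in starved Experiment 1 and 27.7, 20.3 and 17.1 in starved Experiment 2 (log2 difference -2.42, SE 0.150, limma adjusted p = 8.4e-07). The nicotinic acid transporter-like genes NCU09027 and NCU08715 differed by -2.23 and -2.20, and the MFS transporter gene *asd-3* by -2.03. *hgt-1*, a high-affinity glucose transporter gene, had 145, 68.4 and 80.2 in Experiment 1 and 132, 87.7 and 106 in Experiment 2, so these libraries overlapped (log2 difference 0.20, SE 0.246, limma adjusted p = 0.47). The most abundant member, the iron/lead transporter gene NCU09210, had 2133, 1905 and 2079.9 and 1190.4, 852 and 863, and its call was lost without Experiment 2 replicate 2 or replicate 3.

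Of 6 polyphosphate genes 0 were called by limma and the 2-fold threshold. All 6 had a limma adjusted p under 0.05, as had 70.5% of all genes tested. The median difference was -0.07. *vtc-1*, which encodes a vacuolar transporter chaperone of polyphosphate synthesis, had 141, 133 and 139 rescaled TPM at 7 mM, 206, 187 and 199 in starved Experiment 1 and 367, 376 and 419 in starved Experiment 2 (log2 difference 0.97, SE 0.0806, limma adjusted p = 4.2e-06). It stayed just under 2-fold and was called higher in 3 of the 9 fits with 1 library left out and after the correction for gene span, where its log2 difference was 1.37. The exopolyphosphatase gene NCU06310 had a negative difference, 67.7 to 70.5 against 34.7 to 41.3 (log2 difference -0.87, SE 0.0870, limma adjusted p = 1.4e-05), and was the member called lower with TPM as deposited.

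Transcripts for cytoplasmic ribosomal proteins showed the widest difference among the lists in percentage points of TPM. As a ratio, the sums of 3 lists that were lower in Experiment 2 differed more. These were conidiation (32.4-fold), nucleases (5.16-fold) and sugar phosphate and nucleotide sugar genes (4.98-fold). The 75 genes together made up 2.22%, 3.14% and 3.68% of all TPM in the starved Experiment 1 libraries and 12.3%, 14.7% and 16.7% in those of Experiment 2. They held 24.0% to 25.4% at 7 mM, 20.9% to 22.2% in the starved Δ*nuc-1* libraries of Experiment 2 and 6.18% to 7.39% in wild type starved for 12 h. The sum was 4.84-fold higher in Experiment 2 than in Experiment 1 (exact permutation test, two-sided, p = 0.10, the smallest p allowed), and 6.49-fold with rescaled TPM. Of the 75 genes, 62 were called higher in Experiment 2 (82.7%, against 11.7% of all genes) and 0 lower, with a median difference of 2.51. Against 7 mM, 64 were called at least 4-fold lower in starved Experiment 1 and 9 in starved Experiment 2, with median differences of -3.57 and -0.83.

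**Figure D3:**
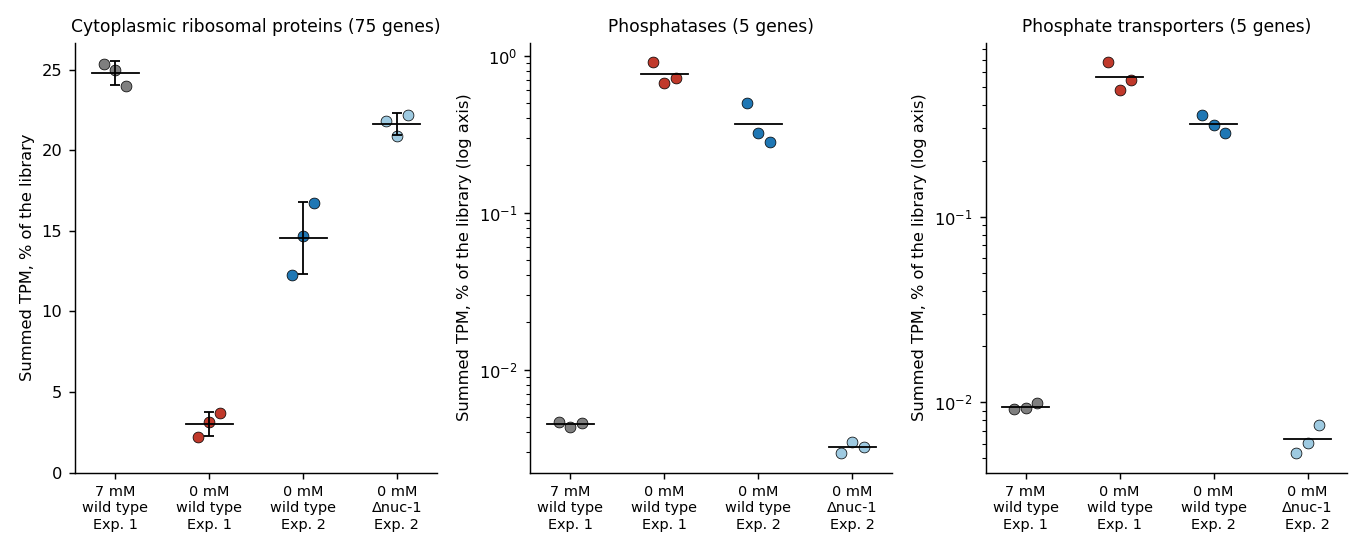
Summed TPM as a percentage of the library (y axis; linear from 0 for ribosomal proteins, log for the others) of the 75 cytoplasmic ribosomal protein genes, 5 phosphatase genes and 5 phosphate transporter genes; points are libraries, horizontal lines the means of 3 and bars in the left panel the SD. Ribosomal protein transcripts averaged 3.01% in starved Experiment 1, 14.6% in starved Experiment 2 and 24.8% at 7 mM.

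The most abundant member, NCU03635, had 17970.3, 18454 and 15369 rescaled TPM at 7 mM, 744, 1177 and 1519 in starved Experiment 1 and 6699, 8047 and 10967 in starved Experiment 2 (log2 difference 2.93, SE 0.289, limma adjusted p = 1.2e-05). In 3 members with wider gaps, NCU03738, NCU01776 and NCU06047, every Experiment 2 wild-type library lay above the unstarved libraries, which come from the other site. The means of the Δ*nuc-1* libraries of Experiment 2 were higher still. These libraries had 21315 to 25832, 2816 to 3675 and 3683 to 4300 for the 3 genes. NCU03738, annotated as 40S protein S29, had 8354, 7781 and 7147 rescaled TPM at 7 mM, 396, 735 and 838 in starved Experiment 1 and 8926, 11822 and 15016 in starved Experiment 2 (log2 difference 4.22, SE 0.294, limma adjusted p = 1.6e-06). NCU01776, annotated as 60S protein L15, had 69.7, 128 and 143 and 1621, 1870.2 and 2869 (18.7-fold, log2 difference 4.23, SE 0.273, limma adjusted p = 1.1e-06). NCU06047, annotated as 40S protein S2, differed 17.7-fold and NCU06843, annotated as 60S protein L3, by 3.98. Of the 13 members not called, 5 had negative differences, the widest in NCU06048, annotated as 40S protein S30, with 477, 582 and 513 in Experiment 1 and 247, 262 and 336 in Experiment 2 (log2 difference -0.90, SE 0.127, limma adjusted p = 0.00013). NCU06048 was called lower with TPM as deposited and without Experiment 2 replicate 3. In NCU06749, the least abundant member, the libraries overlapped, with 2.36, 4.17 and 5.55 and 4.34, 3.90 and 3.45 (log2 difference 0.01, SE 0.257, limma adjusted p = 0.97).

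The 10 genes of largest ratio in favour of Experiment 2 held *cpc-2*, *rap-1* and *un-16*, which were thus chosen for their gap and lie outside the list of 75. *cpc-2*, which encodes a ribosome-associated WD-repeat protein related to RACK1, had 2294, 2276 and 2214 rescaled TPM at 7 mM, 95.9, 163 and 195 in starved Experiment 1 and 2621, 3599.6 and 4055 in starved Experiment 2, 22.6-fold higher (log2 difference 4.53, SE 0.247, limma adjusted p = 4.4e-07). *rap-1*, annotated as ribosome-associated protein-1, had 54.02, 83.6 and 117 and 1308, 1839.8 and 2196 (21.02-fold), and *un-16*, also listed as *crp-17* for a cytoplasmic ribosomal protein, had 223, 299 and 398 and 3584, 5400.1 and 6499.7 (16.8-fold). For *cpc-2* and *rap-1* every Experiment 2 library lay above every 7 mM library, and the Δ*nuc-1* libraries were higher still, 5425 to 6424 for *cpc-2*.

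Ribosome assembly genes included members called lower than 7 mM in each experiment. Of 29 ribosome biogenesis and RNA polymerase I genes, 8 were called higher in Experiment 2 (27.6%, against 11.7% of all genes) and 0 lower. The median difference of these 29 was 0.85. With TPM as deposited 5 were called higher, and with no minimum of 10 TPM 15 were. Against 7 mM, 23 of them were at least 4-fold lower in starved Experiment 1 and 8 in starved Experiment 2, with medians of -2.70 and -1.53. The rRNA 2′-O-methyltransferase fibrillarin gene NCU03702 had 388, 390.1 and 382 rescaled TPM at 7 mM, 27.2, 22.1 and 42.2 in Experiment 1 and 168, 139 and 137 in Experiment 2 (log2 difference 2.28, SE 0.193, limma adjusted p = 4.6e-06). It was thus partly lowered in Experiment 2 and further lowered in Experiment 1.

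Translation factor genes had 10 of 24 called higher in Experiment 2 (41.7%, against 11.7% of all genes) and 0 lower. With TPM as deposited the counts were 6 and 1. The medians of these genes against 7 mM were -1.10 in starved Experiment 1 and -0.06 in starved Experiment 2. *eif5A*, the gene for translation factor 5A and the most abundant of them, had 1839.8, 2091 and 2159 rescaled TPM in Experiment 1, 5696, 6834 and 8413 in Experiment 2 and 6074, 5929.9 and 5623 at 7 mM (log2 difference 1.77, SE 0.186, limma adjusted p = 1.9e-05). Of 20 mitochondrial ribosomal protein genes, 9 were called higher in Experiment 2 (45.0%, against 11.7% of all genes) and 0 lower. With TPM as deposited 3 were called higher and 1 lower. The widest gap was that of NCU06469 with 33.96, 31.9 and 41.1 and 129, 154 and 194 (log2 difference 2.11, SE 0.146, limma adjusted p = 1.5e-06). The medians of the mitochondrial list against 7 mM were -1.64 and -0.90.

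Of 11 arginine pathway genes 6 were called higher in Experiment 2 (54.5%, against 11.7% of all genes) and 0 lower. *arg-4* had 267, 269 and 263 rescaled TPM at 7 mM, 97.1, 135 and 112 in starved Experiment 1 and 419, 579.6 and 696 in starved Experiment 2 (log2 difference 2.28, SE 0.176, limma adjusted p = 2.7e-06). *arg-3*, a carbamoyl phosphate synthetase subunit gene, had 27.1, 25.9 and 29.91 and 100.2, 161 and 132 (log2 difference 2.18, SE 0.146, limma adjusted p = 1.3e-06). The list median against 7 mM was -1.44 in Experiment 1 and -0.04 in Experiment 2.

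**Figure D4:**
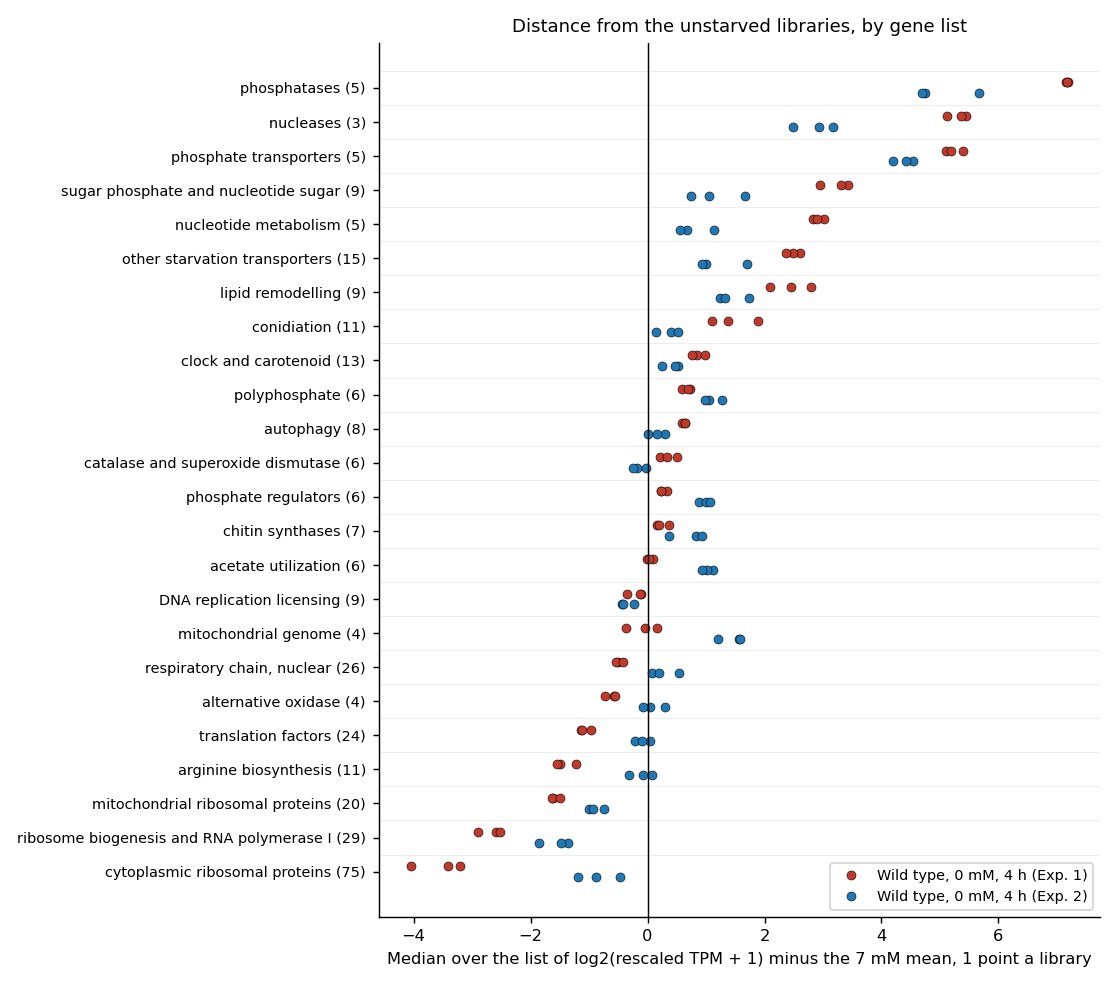
Median over each list of log2(rescaled TPM + 1) minus the mean of the 7 mM libraries (x axis), 1 point for each starved library, red for Experiment 1 and blue for Experiment 2; the number of genes tested stands in brackets. Induced lists lie nearer to 0 in Experiment 2, such as phosphatases at 7.17 and 5.03, and so do cytoplasmic ribosomal proteins, at -3.57 and -0.83, while others, such as polyphosphate genes and regulators, lie further from 0.

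The conidiation gene *eas* had one of the widest gaps between the experiments. *eas* (NCU08457, chromosome II, 3570905 to 3572798 of assembly NC12), the hydrophobin gene of conidia and aerial hyphae, had 37.1, 24.7 and 37.9 rescaled TPM at 7 mM, 4962, 3960.3 and 5136 in starved Experiment 1 and 81.96, 56.9 and 60.9 in starved Experiment 2, 70.4-fold lower (log2 difference -6.12, SE 0.190, limma adjusted p = 6.4e-08). The Δ*nuc-1* libraries of Experiment 2 had 11.4, 7.79 and 12.9, and wild type starved for 12 h had 4793, 6608 and 3406. In Experiment 1 *eas* had thus reached by 4 h the range of the 12 h libraries, and in Experiment 2 it lay above the unstarved and Δ*nuc-1* libraries but far below that range.

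*app* (NCU04533, chromosome VII, 1539827 to 1540778 of NC12), annotated as an abundant perithecial protein, was also lower in Experiment 2. It had 69.5, 55.9 and 72.3 rescaled TPM at 7 mM, 7816, 11720.00 and 9776 in starved Experiment 1 and 169, 70.6 and 102 in starved Experiment 2, 85.8-fold lower (log2 difference -6.48, SE 0.276, limma adjusted p = 1.7e-07), and 1514 to 3876 at 12 h. Every Experiment 1 library thus lay above the 12 h libraries, and Experiment 2 replicate 2 lay within the 7 mM range. The conidiation genes *con-10* and *con-6* had 177, 164 and 185 and 37.2, 41.2 and 35.6 in Experiment 1 against 22.3, 6.48 and 8.84 and 2.58, 2.27 and 1.79 in Experiment 2. For *con-10* the ratio was 13.99, and 22.9 without Experiment 2 replicate 1. *con-8* had 51.6, 121 and 91.9 in Experiment 1 and 11.2, 13.01 and 22.2 in Experiment 2 (log2 difference -2.41, SE 0.325, limma adjusted p = 0.0001), and 451, 939.7 and 597 at 12 h.

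Of the 11 conidiation genes 5 were called lower in Experiment 2 (45.5%, against 11.8% of all genes) and 0 higher, with a median difference of -1.20, and they were *eas*, *con-6*, *con-8*, *con-10* and *ecd-2*. *fl*, the zinc cluster activator of conidiation, had 19.03, 19.2 and 21.8 at 7 mM, 57.7, 76.98 and 66.7 in Experiment 1 and 47.7, 37.7 and 43.5 in Experiment 2, within 2-fold (log2 difference -0.63, SE 0.123, limma adjusted p = 0.0012), and was called lower with TPM as deposited. The upstream developmental genes *acon-2* (0.82), *csp-1* (0.29) and *acon-3* (-0.89) were not called. *con-13* stayed under 10 TPM in every group, with 2.00 to 4.10 in Experiment 1 and 0.487 to 1.21 in Experiment 2. The summed TPM of the list was 0.537% to 0.689% of the library in starved Experiment 1, 0.0169% to 0.0240% in starved Experiment 2 and 0.0126% to 0.0142% at 7 mM. Most of the Experiment 1 sum was *eas*: the other 10 genes together held 0.0537% to 0.0676% in Experiment 1, 0.0120% to 0.0157% in Experiment 2 and 0.00970% to 0.0108% at 7 mM. No member was at 0 in a starved library. In bulk RNA, fewer cells of conidia and aerial hyphae and less RNA per cell cannot be told apart, and the part of such cells in the other differences was not tested.

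Of 13 clock-controlled and carotenoid genes 5 were called lower (38.5%, against 11.8% of all genes) and 1 higher (7.69%, against 11.7%) in Experiment 2. *ccg-1* had 1845, 1985 and 2215 rescaled TPM at 7 mM, 18803, 23461 and 21431 in starved Experiment 1 and 3804, 2796 and 3594 in starved Experiment 2 (log2 difference -2.65, SE 0.195, limma adjusted p = 2.1e-06). *ccg-16* had 21970.4, 20575 and 20819.6 and 4683, 3494 and 4608 (log2 difference -2.32, SE 0.219, limma adjusted p = 9.4e-06), from 8641 to 9817 at 7 mM. *ccg-13* ranged widely within Experiment 1, 194, 1454 and 626, and had 32.6, 42.2 and 36.8 in Experiment 2. *ccg-14* was the other clock-controlled gene called lower, with 191, 1605 and 443 and 112, 148 and 205, though these libraries overlapped and the call was lost without Experiment 2 replicate 1 or 2. The ratio of *ccg-13* was 20.4, and 11.04 without Experiment 1 replicate 2.

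*ccg-6* was the clock-controlled gene called higher, with 1643, 1734 and 1703 at 7 mM, 1555, 1305 and 1415 in Experiment 1 and 6934, 7062 and 8319 in Experiment 2, and the Δ*nuc-1* libraries had 6330.1, 7511 and 7159. High *ccg-6* was thus shared by both strains of Experiment 2, and the 12 h libraries had 2068 to 2541. *frq*, the central clock gene, had 71.3, 78.7 and 71.8 in Experiment 1 and 78.01, 80.3 and 60.9 in Experiment 2, and the libraries overlapped (log2 difference -0.03, SE 0.105, limma adjusted p = 0.84). Of the carotenoid genes, *al-1*, for phytoene desaturase, was called lower in Experiment 2 (log2 difference -1.57, SE 0.180, limma adjusted p = 3.4e-05), and *al-2* and *al-3* differed by -0.46 and -0.47.

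**Figure D5:**
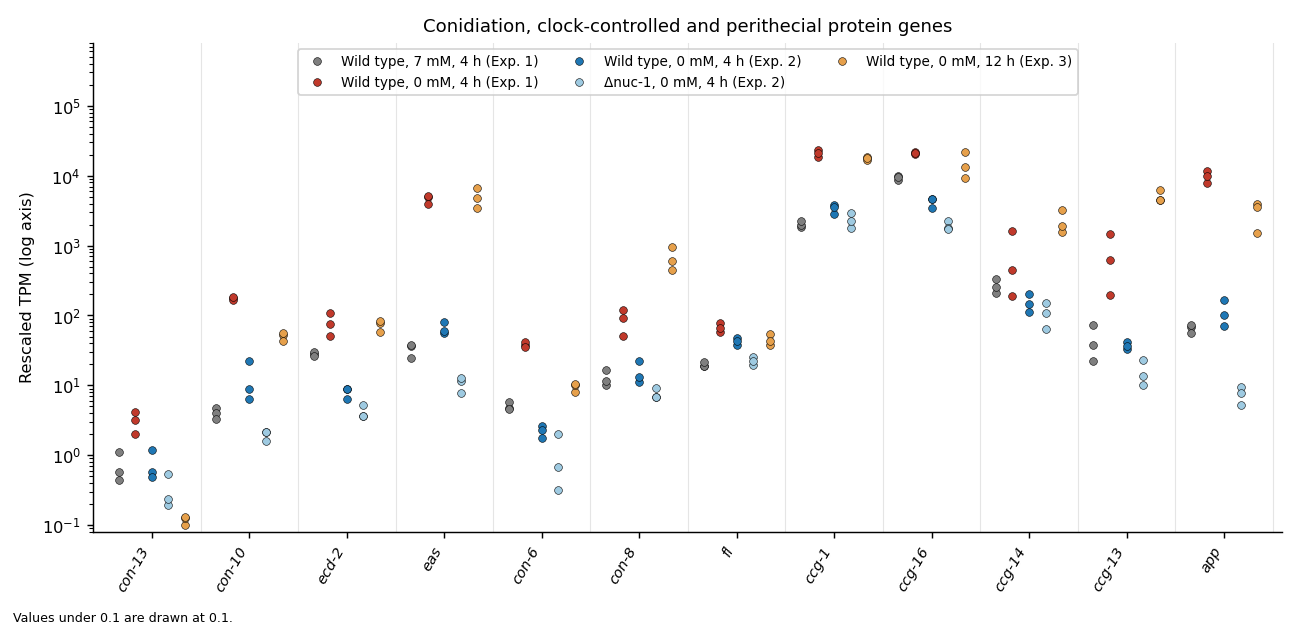
Rescaled TPM (y axis, log scale) of 7 conidiation genes, 4 clock-controlled genes and *app* in each library of 5 groups; 1 point is 1 library and values under 0.1 are drawn at 0.1. For *eas*, *con-10*, *ccg-1* and *app* the starved Experiment 1 libraries (red) and the 12 h libraries (orange) lie well above the starved Experiment 2 libraries (blue).

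The genes NCU04197, NCU05069 and NCU07449 are given because their differences were among the largest. NCU04197, annotated as a CipC protein, had 11.1, 8.74 and 9.66 rescaled TPM at 7 mM, 263, 615 and 477 in starved Experiment 1 and 9.69, 4.05 and 6.45 in starved Experiment 2 (67.1-fold lower, log2 difference -5.85, SE 0.320, limma adjusted p = 4.4e-07). NCU05069, annotated as an FAD-dependent oxidoreductase, had 179, 224 and 190.4 and 5.68, 1.26 and 2.51, a ratio of 62.8 that was 104.8 without Experiment 2 replicate 1. NCU07449 had 617, 536 and 437 and 26.2, 9.09 and 8.90, from 1.48 to 2.48 at 7 mM, and 0.313, 0.348 and 0.380 in Δ*nuc-1*. It was 7.11-fold above 7 mM in Experiment 2, where it was called at 4-fold, and its ratio of 35.99 between the experiments was 58.8 without Experiment 2 replicate 1. At 12 h, NCU04197, NCU05069 and NCU07449 had 917 to 2244, 87.7 to 122 and 807 to 2792.

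Of the antioxidant genes, 3 of 6 were called lower in Experiment 2 (against 11.8% of all genes): the catalase genes *cat-2* and *cat-1* and the superoxide dismutase gene *sod-2*. *cat-2* had 7.85, 8.39 and 7.46 rescaled TPM at 7 mM, 251, 294 and 255 in starved Experiment 1 and 63.1, 24.7 and 29.4 in starved Experiment 2, and 8.91, 7.82 and 5.79 in Δ*nuc-1* (log2 difference -2.86, SE 0.274, limma adjusted p = 1.1e-05). It was therefore induced in the wild type of both experiments and further in Experiment 1. No autophagy gene (0 of 8, median -0.27) or DNA replication licensing gene (0 of 9, median -0.16) was called by limma and the 2-fold threshold. A limma adjusted p under 0.05 was reached by 5 of the 8 autophagy and 6 of the 9 licensing genes, shares below the 70.5% of all genes tested. With TPM as deposited, 3 autophagy genes were called lower. The autophagy gene *atg-8* had 1245 to 1309 and 761 to 885 (log2 difference -0.60, SE 0.102, limma adjusted p = 0.00047).

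Some of the genes with the largest ratios lay within 2-fold of 7 mM in starved Experiment 1, and at another level in both starved strains of Experiment 2. NCU09145 (chromosome III, 149432 to 150364 of NC12) was listed at 0 in all 6 libraries of Experiment 1 and had 18.4, 27.5 and 32.6 rescaled TPM in starved wild type and 21.02, 41.3 and 60.8 in Δ*nuc-1* of Experiment 2, and was listed at 0 in every 12 h library. NCU02737, annotated as the cation transporter ChaC, had 18.98, 17.7 and 16.7 at 7 mM, 18.6, 15.2 and 15.5 in starved Experiment 1, 216, 270.1 and 344 in starved Experiment 2 and 255, 236 and 267 in Δ*nuc-1*, and 13.04 to 15.4 at 12 h. NCU09145 and NCU02737 are among the 179 genes through Experiment 2 alone. In the other direction, NCU06915 (chromosome VII, 756592 to 757945 of NC12) had 225, 226 and 214 at 7 mM and 151, 168 and 152 in starved Experiment 1, was at most 0.419 in starved Experiment 2, and was at most 1.14 in Δ*nuc-1*, with 92.9 to 134 at 12 h. Its ratio of 793 was 1798 without Experiment 2 replicate 1 and 526 without replicate 2, so its size is poorly fixed. Among the 993 genes called higher in Experiment 2, the Δ*nuc-1* mean was within 2-fold of the wild-type mean of that experiment for 850 (85.6%), as it was for 802 of the 994 called lower (80.7%) and for 91% of all genes tested.

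NCU16314, NCU09845, NCU05763, NCU08014 and NCU05092 were listed at 0 in every Experiment 2 wild-type library and have no ratio. NCU16314 had 16.5, 31.2 and 26.7 rescaled TPM in starved Experiment 1 and 11.8 to 17.4 at 7 mM, and was listed at 0 in all 3 Δ*nuc-1* libraries. NCU05763 had 23.8, 10.1 and 5.29 in starved Experiment 1 and at most 0.353 at 7 mM, and 144, 73.2 and 56.3 at 12 h, and NCU09845 had 12.9 to 13.4 in starved Experiment 1. The calls of NCU05763 and NCU05092 were lost without Experiment 1 replicate 1.

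Some transcripts of the mitochondrial genome were higher in Experiment 2, in the Δ*nuc-1* libraries and at 12 h than in starved Experiment 1. All of these higher groups were sequenced at UC Berkeley. The paper enriched poly(A) RNA for its libraries, and whether library preparation changed the share of mitochondrial transcripts was not tested. NCU16004 and NCU16005, on the mitochondrial chromosome, had 2.51, 3.35 and 2.64 and 0.0757, 0.421 and 0.0906 rescaled TPM in starved Experiment 1 and 48.4, 61.4 and 78.1 and 12.9, 11.62 and 51.8 in starved Experiment 2. In Δ*nuc-1* they had 93.5, 59.6 and 70.2 and 14.02, 32.7 and 37.2, and at 12 h 204 to 246 and 18.6 to 26.4. The ATPase subunit 8 gene NCU16024 had 48.5, 27.003 and 19.4 in Experiment 1 and 341, 399.6 and 772 in Experiment 2, 23.3 to 63.1 at 7 mM and 249 to 342 at 12 h. NCU16004, NCU16005 and NCU16024 were not above 7 mM on average in starved Experiment 1 and are among the 179 genes through Experiment 2 alone. The ratio of NCU16005 was 130.1, 305 without Experiment 1 replicate 2 and 63.1 without Experiment 2 replicate 3. The median of 4 mitochondrially encoded cytochrome genes above the 7 mM mean was 1.21 to 1.59 in Experiment 2, 1.02 to 1.62 at 12 h and -0.36 to 0.16 in starved Experiment 1. Of these genes, 3 were called higher in Experiment 2, of which NCU16003 lost its call without Experiment 1 replicate 1 or 3 or Experiment 2 replicate 2. The member not called, NCU16013, for cytochrome b, had 10.01 to 16.6 and 10.8 to 11.65.

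Nuclear genes of the respiratory chain had 8 of 26 called higher and 1 lower in Experiment 2. These were 30.8% and 3.85%, against 11.7% and 11.8% of all genes. With TPM as deposited 5 were called higher and 3 lower. *cyc-1*, the cytochrome c gene, had 2029, 2063 and 1959 rescaled TPM at 7 mM, 479.9, 387 and 487 in starved Experiment 1 and 2767, 3427 and 5173 in starved Experiment 2 (log2 difference 3.02, SE 0.209, limma adjusted p = 1.5e-06). Among genes of acetate use 1 of 6 was called higher (16.7%, near the 11.7% of all genes), the acetyl-CoA hydrolase gene *acu-8* (log2 difference 2.00, SE 0.0762, limma adjusted p = 1e-07). Of 7 chitin synthase genes 1 was, *chs-5* (14.3%, also near that share; log2 difference 1.09, SE 0.0865, limma adjusted p = 3.2e-06), and its log2 difference fell under the 2-fold threshold with TPM as deposited (0.69) and after the correction for gene span (0.42). The 4 genes listed for alternative oxidase and its regulation had differences of 0.23 to 0.77 and 0 were called by limma and the 2-fold threshold. Of these 4, 3 had a limma adjusted p under 0.05, near the 70.5% of all genes tested.

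Genes often used as references for expression were not level between the experiments. Actin (*act*) had 1887, 1798 and 1872 rescaled TPM at 7 mM, 2261, 1824 and 1938 in starved Experiment 1, 3662, 3557 and 4192 in starved Experiment 2 and 3362, 3269 and 3488 in Δ*nuc-1* (log2 difference 0.92, SE 0.140, limma adjusted p = 0.00022). It stayed under 2-fold, and was called without Experiment 1 replicate 1. *gpd-1*, for glyceraldehyde-3-phosphate dehydrogenase, had 3291, 4605 and 3739.99 in Experiment 1 and 9389, 9469 and 13890.00 in Experiment 2 (2.81-fold higher, log2 difference 1.48, SE 0.223, limma adjusted p = 0.00021). The Δ*nuc-1* libraries had 8944 to 10252 for *gpd-1*, so both genes were higher in both strains of Experiment 2 than in starved Experiment 1. At 12 h *act* had 1701 to 2234, which overlaps starved Experiment 1, while *gpd-1* had 9527 to 16325, as high as in Experiment 2.

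The neighbouring genes NCU02545 and NCU02546, of unknown function, were called lower than 7 mM in starved Experiment 1. NCU02545 had 33.8, 30.8 and 36.7 rescaled TPM at 7 mM, 0.0586, 0 and 0.0775 in starved Experiment 1 and 0.154, 0.138 and 0.355 in starved Experiment 2, so it was near 0 in each. NCU02546 had 113, 114 and 111 at 7 mM, 11.4, 7.93 and 14.8 in Experiment 1 and 37.5, 36.8 and 27.01 in Experiment 2 (log2 difference 1.52, SE 0.191, limma adjusted p = 6.7e-05).

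The libraries of Experiment 2 also differed among themselves along the same lines. The 179 induced genes had a median of 1.96 above the 7 mM mean in replicate 1 and 1.30 and 1.37 in replicates 2 and 3, against 3.10, 3.35 and 3.27 in Experiment 1. Replicate 1 also had the lowest ribosomal protein share of Experiment 2 (12.3%) and the highest phosphatase share (0.497%). Even so, it lay outside the range of the Experiment 1 libraries in each of these measures. In Experiment 1 the ribosomal protein share was lowest in replicate 1 (2.22%), which also had the highest phosphatase share (0.907%).

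Gene length moved with the difference between the experiments. Over 5 equal groups of genes ordered by annotated span, the median difference went from -0.52 in the shortest (87 to 1477 bp) through -0.22, -0.09 and 0.12 to 0.41 in the longest (3457 to 34205 bp). The median span was 1730 bp for the cytoplasmic ribosomal protein genes and 2231 bp for the phosphatase genes, against 2281 bp for all genes tested. After a correction of each library for gene span, chosen after seeing the data, 946 genes were called higher and 808 lower, 67 ribosomal protein genes were called higher, and 116 of 179 starvation-induced genes were called lower.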

How the data were processed

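RNA-seq libraries of *N. crassa* were compared as deposited, with no read depth. The authors quantified reads with Salmon 1.4.0 against the OR74A genome and deposited TPM, a share of transcripts normalized for length, for 10697 transcripts of 9774 genes in 18 libraries, and transcripts were summed per gene here. Locus tags were matched to RefSeq (NC12) for 9773 genes. Libraries were rescaled by median-of-ratios factors over the 9 wild-type 4 h libraries. Genes whose group mean reached 1 TPM in 1 of the 3 groups were tested with limma 3.58.1 (R 4.3.3, trended eBayes) on log2(rescaled TPM + 1), a scale that understates changes of low genes, and p-values were adjusted by Benjamini-Hochberg. On simulated data for 8301 genes, 95 of 100 genes changed 3-fold and 100 of 100 changed 8-fold were called, with 0 false calls. The simulated libraries had the spread within groups and no difference between sites. The changed genes were drawn from the more abundant ones. Calls of low genes and differences between sites were thus not covered. Summed TPM were compared by exact permutation. Alternatives covered scaling, pseudocount (0.1), filters, thresholds, libraries left out and gene span.

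The members and lists were chosen with earlier results of these data known, several lists from genes the study named. Named were all members of the 6 regulator to lipid lists, the 10 genes of largest ratio in each direction with libraries that do not overlap, the 5 starvation genes of largest difference in each direction, and up to 4 members of each other list with its most and least abundant. Further members, namely *man-2*, *hgt-1*, *mig-12*, *acon-2*, *acon-3*, *csp-1*, *con-8*, *fl*, *al-1*, *al-2*, *al-3*, *frq*, *ccg-14* and NCU06048, were chosen after their values were seen. Salmon assigns shared reads by likelihood, so near-identical copies are uncertain.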

Additional observations from a re-analysis of the deposited data

How the results depend on the processing

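Of 91 named genes called between the experiments, 83 kept their call under all 21 alternatives. With TPM left as deposited, Experiment 2 had 493 genes called higher and 1648 lower (113 and 472 at 4-fold), 483 genes were higher in starved Experiment 1 than at 7 mM, 17 starvation-repressed genes were called higher in Experiment 2, and the median of the acetate genes turned from 0.26 to -0.15. With no minimum of 10 TPM, 1516 genes were called lower (478 at 4-fold), and 271 genes were starvation-induced, of which 193 were called lower in Experiment 2. With a threshold on limma's log2 difference, 83 starvation-repressed genes were called higher. With rescaled TPM, chosen after seeing the data, the summed ratios of Experiment 2 to Experiment 1 were 0.74 for phosphate transporters and 6.49 for ribosomal proteins, against 0.56 and 4.84.

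Leaving out 1 library at a time gave 958 to 1059 genes higher and 932 to 1033 lower, 191 to 214 and 251 to 319 at 4-fold, and 119 to 135 starvation-induced genes lower and 36 to 50 repressed genes higher in Experiment 2. Against 7 mM it gave 299 to 324 higher and 298 to 313 lower for Experiment 1, 101 to 119 and 133 to 155 for Experiment 2, and 172 to 192 and 130 to 139 for both. The summed ratios ranged from 0.396 to 0.536 for phosphatases, 0.518 to 0.617 for phosphate transporters and 4.27 to 5.44 for ribosomal proteins.

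Deviations of same-numbered libraries correlated at -0.119 to 0.0934, so the replicate numbers do not pair the libraries. With the number as a replicate block, 994 genes were called higher and 996 lower, 128 starvation-induced genes lower and 41 repressed genes higher, and no named gene changed its call.

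The planned correction on transcript length and GC content was not run, since the reference used here gives gene spans only. The precision rests on 3 libraries a group and depth is unknown. Experiment, site, sequencer and read length cannot be told apart, and the unstarved reference comes from Experiment 1 only.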
